A study of Homo sapiens with 10 samples.

Results

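Ion pumps and exchangers were examined in human embryonic stem cells with and without an edited potassium channel gene, as 7 listed genes among 32152 in the deposited count table. The 7 are ATP1B1, ATP1B2 and ATP1B3 (beta subunits of the sodium pump), ATP2B1 and ATP2B4 (calcium pumps of the plasma membrane), SLC8A1 (a sodium/calcium exchanger) and SLC12A2 (a cotransporter of sodium, potassium and chloride). They were chosen by gene symbol. All 7 passed the filter on low counts, which kept 19163 genes. RNA-seq of polyA RNA was done on the line WAe009-A, an embryonic stem cell line also called H9, with 5 libraries of KCNH2 knockout cells (KO) and 5 of wild-type cells (WT). KCNH2 encodes hERG1, a voltage-gated potassium channel subunit. Titles and growth protocol call the edited cells a knockout, whereas the genotype field calls them a knockdown. Both groups were kept undifferentiated on Matrigel, KO cells in mTeSR plus and WT cells in TeSR-E8, so genotype and medium cannot be told apart in any result here. The sources used here give neither the position of the edit nor the number of edited clones. Whether the replicates were separate cultures is not stated by the labels, and the p-values therefore reflect the spread among these libraries alone, which may be technical.

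The sodium pump is built from a catalytic alpha subunit and a glycosylated beta subunit, and it exports sodium in exchange for potassium at the cost of ATP. The gradients it maintains set the resting potential together with potassium channels, and they drive secondary carriers such as the sodium/calcium exchanger and the chloride-loading cotransporter NKCC1, which SLC12A2 encodes. Plasma membrane calcium ATPases (PMCA), which calmodulin activates, remove calcium from the cytosol without using the sodium gradient.

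Library totals ran from 29788732 to 40587206 counts in KO and from 28615751 to 47319933 counts in WT. KCNH2 mRNA was lower in KO, at 12.2 ± 1.001 CPM (counts scaled to library size with edgeR's TMM factors) against 15.5 ± 0.75 CPM in WT (SD, n = 5 each), a difference in mRNA that says nothing of the protein (log2 fold change -0.35, edgeR adjusted p = 6.48e-04). On the second principal component KO replicate 3 lay at -59.1, WT replicate 3 at -32.2 and WT replicate 2 at -10.1, against -2.26 to 13.9 in the other KO and 25.0 to 35.8 in the other WT libraries. All 10 pluripotency markers were detected, with a summed level of 7757 to 8224 CPM in KO and 7026 to 7267 CPM in WT. Of the other marker lists, 3 of 9 cardiomyocyte genes in the table (MYH7, NKX2-5 and NPPA) and 3 of 9 neural and glial genes (PAX6, SOX1 and SNAP25) stayed under 1 CPM in both groups. The summed cardiomyocyte list was 43.9 to 52.0 CPM in KO and 45.9 to 51.8 CPM in WT. The summed neural list was 119 to 139 CPM in KO and 138 to 151 CPM in WT. Both sums hold opposite moves. At an edgeR adjusted p under 0.05, 1 of 6 tested cardiomyocyte genes rose and 2 fell. Of 7 tested neural and glial genes, 1 rose and 4 fell. MYH6 held 9 to 14 counts in KO and 29 to 54 in WT, and STMN2 held 394 to 584 and 85 to 145. The summed endoderm list (1.98 to 2.51 CPM in KO, 4.10 to 7.21 CPM in WT) and the summed trophoblast and amnion list (10.9 to 14.7 CPM in KO, 28.4 to 36.1 CPM in WT) were lower in every KO library. Most of the endoderm difference was FOXA2, at 0.40 ± 0.15 CPM in KO and 3.73 ± 1.04 CPM in WT, while AFP, GATA4 and GATA6 stayed under 1 CPM in both groups. The trophoblast and amnion difference was GABRP and KRT7, the only 2 tested genes of that list. CDX2, GATA3 and TFAP2A stayed under 1 CPM in both groups. The summed endothelium and blood list was higher in every KO library (81.3 to 84.2 CPM in KO, 72.6 to 77.0 CPM in WT). Most of that sum was KDR, and of the list's 4 tested genes 2 rose and 2 fell (median log2 fold change -0.44). VWF held 20 to 34 counts in KO and 49 to 95 counts in WT. The summed fibroblast list overlapped (831 to 955 CPM in KO, 950.4 to 1027 CPM in WT). Most of that sum was THY1, and of the list's 4 tested genes none rose and 2 fell (median -0.27). COL1A2 held 2582 to 3460 counts in KO and 3937 to 6580 counts in WT. The part of these cells in the results was not tested, and in bulk RNA fewer cells of a type and less RNA per cell cannot be told apart.

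In the KO cells 5 of the 7 genes were lower and 1 was higher. The calcium pump genes ATP2B1 and ATP2B4, the cotransporter gene SLC12A2, the beta subunit gene ATP1B2 and the exchanger gene SLC8A1 fell, ATP1B3 rose, and ATP1B1 did not pass the test. The sizes of these changes were not tested against each other. The SLC8A1 call was lost in 12 of 20 alternative fits, and the ATP1B3 rise with either correction for length and GC content. Calls are edgeR quasi-likelihood tests with Benjamini-Hochberg adjustment over all tested genes and a threshold of 0.05. The background was high: 46% of all tested genes were called, 21.9% as higher and 24.1% as lower in KO, and 34% had no overlap between the 5 and 5 libraries. Of the 7 genes, 4 (ATP1B3, ATP2B1, ATP2B4 and SLC12A2) had no overlap. The genes tested over the whole table had a median log2 fold change of 0.0018.

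**Figure D1:**
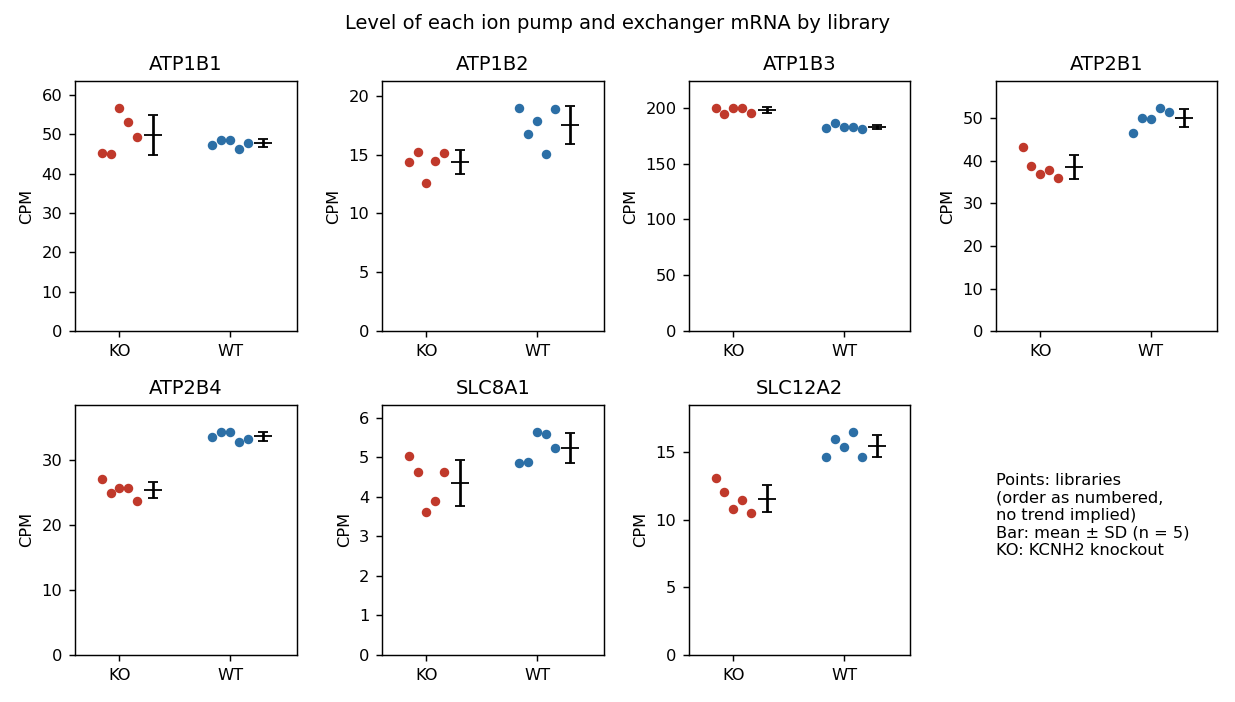
Level of each of the 7 mRNAs in CPM (linear axis from 0), with 1 point per library, KO on the left and WT on the right, and mean ± SD beside the points (n = 5). The KO points lie wholly below the WT points for ATP2B1, ATP2B4 and SLC12A2 and wholly above them for ATP1B3, and they overlap for ATP1B1, ATP1B2 and SLC8A1.

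Upstream sequence is shown for the genes called lower whose window before the outermost RefSeq start reaches no exon of the gene in GENCODE 29, leaving out SLC8A1, whose call was not stable. Each run holds the 150 bases before the start, 5′ to 3′ on the gene's strand, from RefSeq on GRCh38.p14, and capitals mark matches to any of the 7 motifs searched. The windows are chr5:128083616-128083765 on the plus strand (SLC12A2), chr12:89709367-89709516 on the minus strand (ATP2B1) and chr17:7646477-7646626 on the plus strand (ATP1B2).
SLC12A2: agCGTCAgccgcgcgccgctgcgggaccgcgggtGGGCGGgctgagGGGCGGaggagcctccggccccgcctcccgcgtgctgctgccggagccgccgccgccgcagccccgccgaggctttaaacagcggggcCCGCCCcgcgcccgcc
ATP2B1: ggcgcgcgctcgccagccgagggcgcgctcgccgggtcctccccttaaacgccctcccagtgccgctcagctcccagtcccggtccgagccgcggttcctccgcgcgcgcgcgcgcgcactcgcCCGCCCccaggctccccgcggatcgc
ATP1B2: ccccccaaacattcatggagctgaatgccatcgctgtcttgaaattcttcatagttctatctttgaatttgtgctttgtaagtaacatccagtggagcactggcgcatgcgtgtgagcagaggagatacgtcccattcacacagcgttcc
The motifs were searched on both strands. They were the GC box spelled GGGCGG, the box named CCAAT, the half-site of the CRE spelled TGACG, the E-box spelled CACGTG, the AP-1 site spelled TGANTCA, the EGR site spelled GCGNGGGCG, which can overlap the GC box, and the TATA box spelled TATAAA. SLC12A2 held 3 GC boxes and 1 CRE half-site, ATP2B1 held 1 GC box, and ATP1B2 held no match. Over 35116 windows of this length, 36.8% held a GC box and 15.4% a CRE half-site, so these matches are common. The windows also differed in composition, with 83.3% G and C in SLC12A2, 80.0% in ATP2B1 and 47.3% in ATP1B2.

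The beta subunits carry the alpha subunit to the plasma membrane and tune its affinity for potassium. ATP1B3 encodes the beta 3 subunit (ENSG00000069849, chromosome 3, 141876124 to 141926514, plus strand of GRCh38, 7 exons in the transcript used for its length). Its KO libraries, replicates 1 to 5, held 199.4, 195, 199.9, 199.5 and 196 CPM, against 182, 186, 182, 183 and 181 CPM in WT. Every KO library was above every WT library, and each group was tight. KO was 8.24% higher, a log2 fold change of 0.11 with an SE of 0.02 (edgeR adjusted p = 7.29e-04). Corrected for transcript length and GC content, the log2 fold change was 0.0061 (adjusted p = 0.817), and with all annotated exons merged as the length it was -1.24e-06, so the rise did not pass under either correction.

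ATP1B1 encodes beta 1, the most widespread form in the body (ENSG00000143153, chromosome 1, 169105697 to 169132722, plus strand). The KO libraries held 45.2, 45.0, 56.7, 53.2 and 49.4 CPM, against 47.3, 48.6, 48.6, 46.2 and 47.7 CPM in WT. KO replicates 3, 4 and 5 were above all WT libraries and KO replicates 1 and 2 below them, so the KO group straddled a narrow WT group. The coefficient of variation was 10.2% in KO and 2.12% in WT. On the log2 scale KO minus WT was 0.07 (95% interval -0.065 to 0.20, edgeR adjusted p = 0.396). Without KO 3, WT 2 and WT 3 it was 0.036 (adjusted p = 0.674).

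ATP1B2 encodes beta 2, known in rodents as an adhesion molecule of glia (ENSG00000129244, chromosome 17, 7646627 to 7657768, plus strand). It held 14.3, 15.2, 12.6, 14.5 and 15.1 CPM in the KO libraries, against 19.0, 16.8, 17.9, 15.1 and 18.8 CPM in WT. KO was lower on the whole, but the groups overlapped, since the lowest WT library (15.06 CPM) lay under the highest KO libraries. The log2 fold change was -0.28 (SE 0.07, edgeR adjusted p = 0.00642), and it stayed past the threshold in all 20 alternative fits (adjusted p 0.00133 to 0.0270).

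Ratios of counts within a library do not depend on library scaling, and 5 were compared by two-sided exact permutation tests, whose smallest p with 5 and 5 libraries is 0.00794. The log2 ratio of ATP1B2 to ATP1B3 was -3.79 ± 0.12 in KO and -3.39 ± 0.15 in WT (SD, n = 5 each), without overlap (exact p = 0.00794, adjusted over the 5 ratios 0.0198). The difference of -0.40 became -0.23 when counts were corrected for transcript length and GC content (exact adjusted p = 0.0595) and -0.31 with the union of exons (0.0198). It also missed the threshold with the replicate block (0.156) and without KO 3, WT 2 and WT 3 (0.143), where the smallest possible p exceeds 0.05. The log2 ratio of ATP1B1 to ATP1B3 was -1.99 ± 0.14 in KO and -1.94 ± 0.029 in WT, a difference of -0.055 (exact p = 0.365, adjusted p = 0.456), which was -0.087 without those 3 libraries and 0.049 or -0.0036 with the corrections for transcript length or exon union. Divided by transcript length, ATP1B3 made up 82.2 ± 0.98% of the 3 beta mRNAs in KO and 80.9 ± 0.55% in WT. On the same scale ATP1B1 made up 14.4 ± 1.2% in KO and 14.7 ± 0.21% in WT, and ATP1B2 3.43 ± 0.31% in KO and 4.45 ± 0.41% in WT. In both groups the beta 3 mRNA was the main one.

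Both listed genes of plasma membrane calcium pumps fell. ATP2B1 encodes PMCA1, the widely expressed form (ENSG00000070961, chromosome 12, 89588049 to 89709300, minus strand, 21 exons). Its KO libraries held 43.2, 38.6, 36.8, 37.9 and 35.8 CPM, against 46.5, 49.8, 49.7, 52.3 and 51.3 CPM in WT. All KO libraries lay below all WT libraries, with KO replicate 1 nearest to WT. KO was 23.0% lower, a log2 fold change of -0.38 with an SE of 0.05 (edgeR adjusted p = 1.03e-04).

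ATP2B4 encodes PMCA4 (ENSG00000058668, chromosome 1, 203626561 to 203744081, plus strand, 21 exons). The KO libraries held 26.9, 24.8, 25.7, 25.6 and 23.7 CPM, against 33.5, 34.2, 34.3, 32.7 and 33.1 CPM in WT. The gap between the groups was wider than the spread within either. KO was 24.5% lower, a log2 fold change of -0.41 with an SE of 0.04 (edgeR adjusted p = 6.32e-06). Its transcript is the longest used here at 8968 bases, and after the correction for transcript length and GC the log2 fold change was -0.22 (adjusted p = 3.45e-04).

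The log2 ratio of ATP2B4 to ATP2B1 was -0.60 ± 0.063 in KO and -0.57 ± 0.081 in WT, a difference of -0.027 (exact permutation p = 0.571, adjusted p = 0.571), whose sign turned under both length corrections (0.062 and 0.016). Per length, ATP2B1 was 65.9 ± 0.99% of the sum of both pump mRNAs in KO and 65.5 ± 1.27% in WT. The summed level of both pumps was 59.5 to 70.2 CPM in KO and 80.1 to 85.1 CPM in WT.

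SLC8A1 encodes NCX1, which exchanges sodium for calcium and is best known in heart muscle (ENSG00000183023, chromosome 2, 40097270 to 40611053, minus strand). Its KO libraries held 5.04, 4.62, 3.63, 3.90 and 4.61 CPM, from 130 to 166 counts each, against 4.86, 4.88, 5.65, 5.59 and 5.24 CPM in WT. The groups overlapped, since KO replicate 1 was above WT replicates 1 and 2. The log2 fold change was -0.27 (SE 0.10, edgeR adjusted p = 0.0430), which was near the threshold. The call was lost with any 1 of 6 libraries left out: KO replicate 3 (adjusted p = 0.0884), 4 (0.1005) or 5 (0.0536), or WT replicate 3 (0.0959), 4 (0.0897) or 5 (0.0724). It was also lost without KO 3, WT 2 and WT 3 together (0.166), in the DESeq2 Wald test (0.0584), with no filter (0.0657) and with either length correction (0.0574 and 0.605), where the log2 fold change was -0.25 with transcript length and -0.069 with the union of exons. The log2 ratio of SLC8A1 to ATP2B1 plus ATP2B4 was -3.88 ± 0.18 in KO and -3.99 ± 0.086 in WT, a difference of 0.12 (exact permutation p = 0.183, adjusted p = 0.304). Corrected for transcript length it was 0.0034, corrected for the exon union 0.22, and without KO 3, WT 2 and WT 3 it was 0.17, and it did not pass in any of these. Of the exons annotated for the antisense gene SLC8A1-AS1, 12 overlap exons of SLC8A1, and it measured 0.24 CPM in KO and 0.39 CPM in WT. Since the strand setting is unknown, reads of both genes cannot be told apart there.

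SLC12A2 encodes NKCC1, which loads cells with chloride, so that GABA depolarises immature neurons (ENSG00000064651, chromosome 5, 128083766 to 128189688, plus strand, 27 exons). The KO libraries held 13.1, 12.0, 10.8, 11.4 and 10.5 CPM, against 14.6, 16.0, 15.4, 16.5 and 14.7 CPM in WT. There was no overlap, and KO replicate 1 again lay nearest to WT. KO was 25.1% lower, with a log2 fold change of -0.42 and an SE of 0.06 (edgeR adjusted p = 2.49e-04), close to the -0.41 of ATP2B4.

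The potassium/chloride cotransporters (KCC) run the other way and extrude chloride. SLC12A4, which encodes KCC1, moved against SLC12A2: it held 63.4, 78.0, 97.1, 90.7 and 80.1 CPM in KO, against 71.8, 63.3, 65.2, 63.3 and 66.6 CPM in WT (edgeR adjusted p = 0.0167). SLC12A7, which encodes KCC4, was lower in KO by 0.21 on the log2 scale (edgeR adjusted p = 0.00121), but it was not called lower after the length correction. SLC12A5, the neuronal KCC2 gene, measured 2.12 ± 0.57 CPM in KO and 2.02 ± 0.14 CPM in WT (edgeR adjusted p = 0.767).

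**Figure D2:**
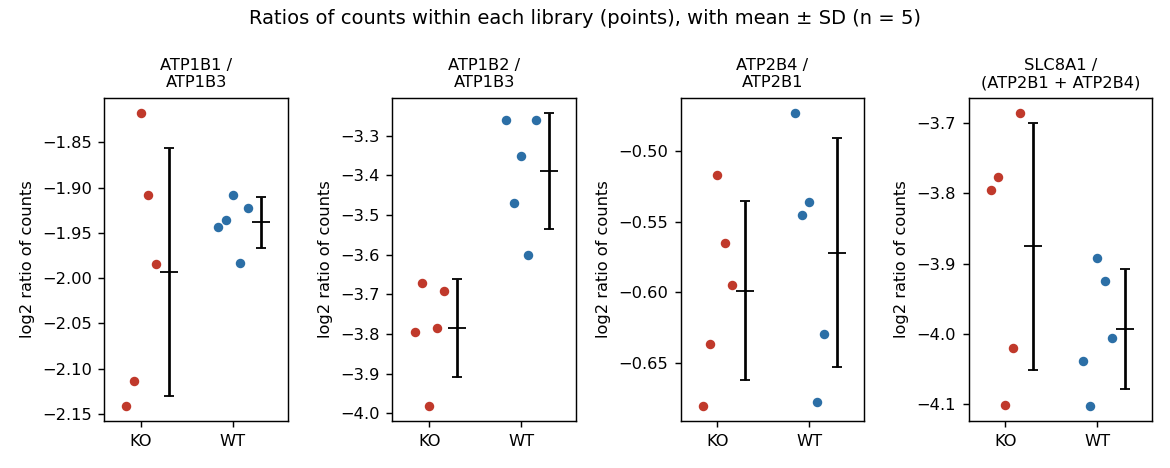
Log2 ratio of counts within each library for 4 pairs of genes or gene sums, with 1 point per library, KO left of WT, and mean ± SD (n = 5); each panel has its own axis, which does not start at 0. The ratio of ATP1B2 to ATP1B3 separates the groups, at -3.79 in KO against -3.39 in WT, and the other 3 ratios overlap.

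**Figure D3:**
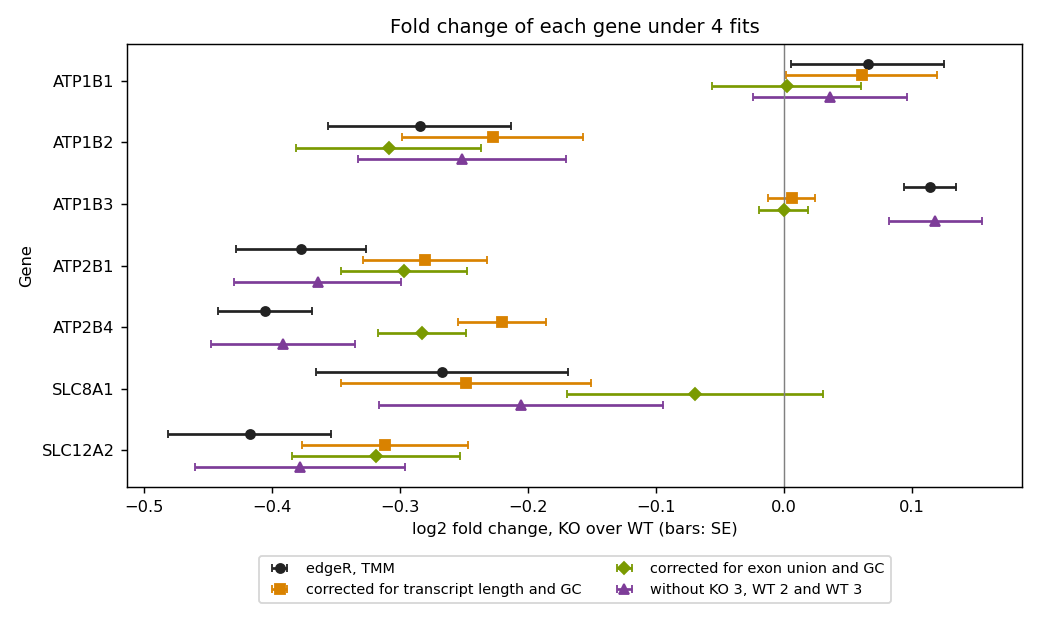
Log2 fold change of KO over WT for each of the 7 genes, with SE bars, in 4 edgeR fits: the TMM-scaled fit, 2 corrections for length and GC, and a fit without KO 3, WT 2 and WT 3. ATP2B1, ATP2B4, SLC12A2 and ATP1B2 stay between -0.42 and -0.22 in all 4 fits, ATP1B3 drops to about 0 under both corrections, and SLC8A1 lies at -0.069 with the union of exons.

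Levels can be set side by side between genes only per length of transcript. In CPM per kilobase of transcript, the order in both groups was ATP1B3, ATP1B1, ATP2B1, ATP1B2, ATP2B4, SLC12A2 and SLC8A1. ATP1B3 stood at 109 ± 1.38 in KO and 101 ± 1.09 in WT, ATP1B1 at 19.1 ± 1.96 in KO and 18.3 ± 0.39 in WT, and ATP2B1 at 5.47 ± 0.41 in KO and 7.10 ± 0.31 in WT. ATP1B2 followed at 4.56 ± 0.33 in KO and 5.55 ± 0.52 in WT, ATP2B4 at 2.83 ± 0.13 in KO and 3.74 ± 0.075 in WT, SLC12A2 at 1.68 ± 0.15 in KO and 2.24 ± 0.12 in WT, and SLC8A1 at 1.37 ± 0.18 in KO and 1.65 ± 0.12 in WT. The library ranges of neighbours in this order did not overlap, other than SLC12A2 and SLC8A1 in KO. The order rests on the length chosen: with the union of exons, ATP1B2 came before ATP2B1, and SLC8A1, whose union of 21922 bases is far above the 3178 bases of its transcript, fell to 0.199 in KO and 0.239 in WT.

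Within groups, the genes that fell did not all vary alike. After the group means were taken out, ATP2B1 and SLC12A2 had a Pearson correlation of log2 CPM of 0.87 over the 10 libraries, the highest of the 21 pairs. ATP1B1 and SLC8A1 had the lowest, at -0.83, and ATP2B1 and ATP2B4 stood at 0.55. These points share library depth and the same libraries that stood apart, and the values are descriptions. Among 11876 genes of at least 5 CPM, those named as most like each member on this measure were PIM3 (0.99) for ATP1B1, B3GNT5 (0.97) and KCNC4 (0.96) for ATP1B2, and UBE4A and SIRT1 (both 0.93) for ATP1B3. For ATP2B1 they were NPTN and EIF1AX (both 0.98), for ATP2B4 NUP37 and THAP1 (both 0.95), for SLC8A1 APELA (0.98) and HILPDA (0.97), and for SLC12A2 AGMAT and COPS3 (both 0.96).

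Lists of other genes of the same systems were set beside the members, and no list was tested as a set. Over all tested genes 21.9% were called higher and 24.1% lower in KO. After the transcript length correction 4441 of 19163 were called higher and 4145 lower. Of 7 tested genes of the FXYD proteins, which modulate pump affinity, and the NKAIN proteins, which bind beta 1, 3 rose and 1 fell (list median 0.095 on the log2 scale). FXYD5, which encodes dysadherin, measured 82.1 ± 9.18 CPM in KO and 54.5 ± 2.24 CPM in WT (log2 fold change 0.59, edgeR adjusted p = 3.23e-05). FXYD7 rose by 0.83 and FXYD1, the phospholemman gene, by 0.55 on the log2 scale, while NKAIN1 fell by 0.33. After the transcript length correction 3 rose and 2 fell, with a median of -0.11.

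Of 5 other tested subunit genes of the sodium and proton pumps, 3 fell and none rose (median -0.11). ATP12A, which encodes the catalytic subunit of the non-gastric proton/potassium pump, fell to 2.78 ± 0.44 CPM in KO, against 4.87 ± 0.32 CPM in WT (edgeR adjusted p = 1.08e-04). After the transcript length correction 1 rose and 2 fell. Of 7 other calcium pump genes, which serve the endoplasmic reticulum, the Golgi or the plasma membrane, 3 fell and none rose (median -0.23). ATP2A3, a reticulum pump gene, measured 27.7 ± 3.66 CPM in KO and 43.8 ± 0.92 CPM in WT (edgeR adjusted p = 2.85e-05), and ATP2C2, a Golgi pump gene, fell by 0.82 on the log2 scale. ATP2C1 measured 112 ± 3.46 CPM in KO and 111 ± 0.73 CPM in WT (adjusted p = 0.845).

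Of 7 tested partners of calcium handling, BSG rose by 0.25 and CALM3, one of 3 calmodulin genes, fell by 0.15 (median of the list 0.052). BSG and NPTN encode basigin and neuroplastin, which bind PMCA pumps, and NPTN measured 75.2 ± 4.16 CPM in KO and 71.9 ± 2.21 CPM in WT (edgeR adjusted p = 0.204). With the transcript length correction 3 rose and 2 fell. Of 6 other tested sodium/calcium and potassium-dependent exchangers, 1 rose and 2 fell (median -0.24). SLC8A2, which encodes NCX2, rose to 5.37 ± 0.43 CPM in KO, against 3.06 ± 0.57 CPM in WT (edgeR adjusted p = 2.51e-04), whereas SLC8A1 was lower in KO. SLC24A3 fell by 0.92 and SLC24A2 by 0.43 on the log2 scale. Under the correction 2 rose and 1 fell.

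Of 6 other tested cation/chloride cotransporters, 1 rose and 2 fell (median -0.088), or 1 and none after the length correction. Of 8 genes of the WNK kinase pathway, which phosphorylates and activates NKCC1, 3 fell and none rose (median -0.051): WNK2 by 0.21, WNK3 by 0.14 and OXSR1 by 0.099 on the log2 scale. After the length correction 1 rose and none fell. Of 15 tested sodium/proton exchangers and bicarbonate transporters, 8 fell and none rose (median -0.16), such as SLC4A8 by 0.34, SLC4A3 by 0.39 and SLC4A7 by 0.30, and after the correction 3 fell and none rose.

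**Figure D4:**
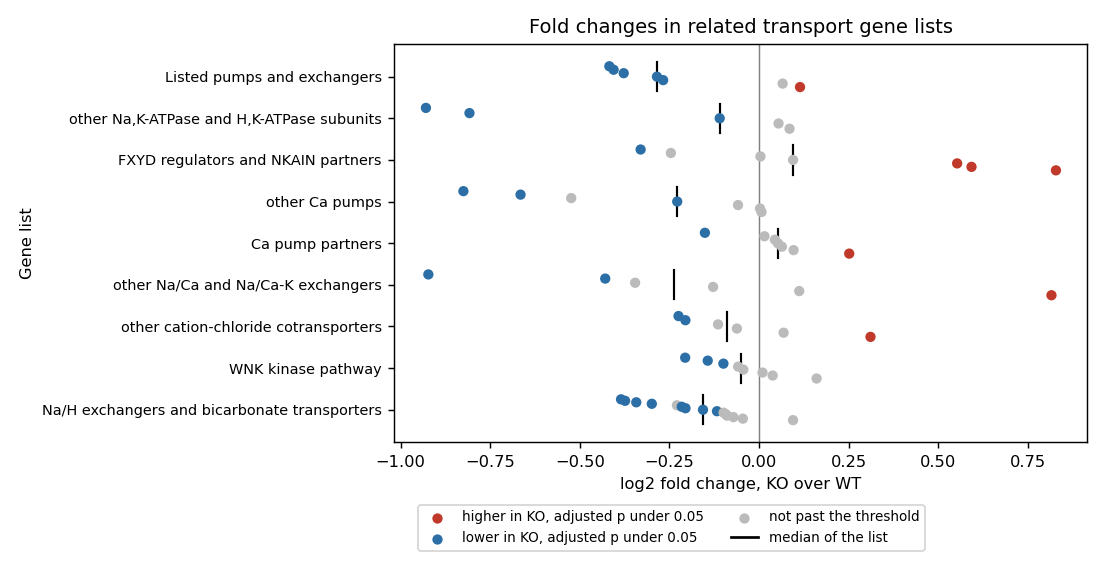
Log2 fold change of KO over WT for every tested gene of 9 lists, with 1 point per gene (red higher, blue lower, grey not past the adjusted p threshold of 0.05) and a black tick at the median of each list. The 7 listed pumps and exchangers have 5 points below 0 that pass and 1 above, while the FXYD and NKAIN row has 3 passing points above 0, up to 0.83.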

How the data were processed

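Raw counts per gene of 10 libraries were deposited by the authors, with no normalization, together with a table of KO against WT with a log2 fold change, its standard error and an adjusted p-value. Per the submitters' processing notes, the build was hg38, and DESeq2 and R 3.6.3 were among the tools. No source used here names the aligner, the counter or its strand setting, and reads of overlapping genes may be shared. Groups and replicate numbers came from the titles. The members and lists were chosen with earlier results of these data known.

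Counts were fitted with edgeR 4.0.16 in R 4.3.3 (filterByExpr, TMM, glmQLFit and glmQLFTest on group), with Benjamini-Hochberg adjustment over 19163 genes. CPM are TMM-scaled edgeR CPM over tested genes. The SE is the size of the log2 fold change divided by the square root of the F statistic. Log2 CPM used a prior count of 2, and count ratios a pseudocount of 0.5. Permutation tests used scipy 1.17.1, and p-values were adjusted over 5 ratios, of which 1 is not reported here. Transcript lengths, GC content, exons and positions came from GENCODE 29 (GRCh38, the assembly of hg38), with 1 principal transcript per gene, known for 98.9% of tested genes. The length correction entered each library's spline trend (5 degrees of freedom) of log2 CPM on length and GC as an offset.

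Alternatives were DESeq2 1.42.0 size factors and Wald test, limma 3.58.1 voom, other filters, a replicate block, 1 surrogate variable (sva 3.50.0), leaving out libraries, and the length correction. The correction with the union of exons, and both length corrections of the ratios, were added after seeing the data. No pair of libraries in a group was within sampling noise (chi-square per degree of freedom 3.59 to 26.2), so none looked like 1 library deposited again. This does not show that they are separate cultures. A count of 0 allows up to 3 counts, or 0.0620 to 0.102 CPM, which covers counting error only, since no source used here mentions molecular identifiers. The steps were tested on simulated data. Genes named are KCNH2, the 7 members, up to 4 called genes per list by smallest p, and the 2 genes most correlated with each member, less some not reported here. Beyond this rule, SLC12A5, ATP2C1, NPTN, SLC8A1-AS1 and some members of marker lists were named after their values were seen.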

Additional observations from a re-analysis of the deposited data

How the results depend on the processing

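Of the 7 genes, ATP1B2, ATP2B1, ATP2B4 and SLC12A2 kept their direction and stayed past the threshold in all 20 alternative fits, with log2 fold changes from -0.33 to -0.23, -0.41 to -0.28, -0.42 to -0.22 and -0.45 to -0.31, and ATP1B1 never passed (0.0023 to 0.11). The number called higher was 1, and 0 with either length and GC correction, where ATP1B3 stood at 0.0061 with transcript length and -1.24e-06 with the union of exons. The number called lower was 4 or 5 in every fit, because of SLC8A1. Over all genes, 3596 to 4820 were called higher and 3598 to 4914 lower. With the replicate block 4 members were lower and 1 higher, and SLC8A1 had an adjusted p of 0.0809. Same-numbered libraries had correlations of their deviations from -0.24 to 0.84. KO replicate 3 correlated more with WT replicate 3 (0.84) than with any other WT library (at most 0.70). Each other KO library correlated more with a WT library of another number. Whether the numbers pair the samples is not settled by these values. For the ratio of ATP1B2 to ATP1B3, the difference was -0.40 with the replicate block (exact sign flips, adjusted p = 0.156) and -0.36 without KO 3, WT 2 and WT 3 (exact adjusted p = 0.143), designs whose smallest p is 0.0625 and 0.0571. Leaving out 1 library at a time gave -0.45 to -0.35, and the transcript length correction -0.23 (exact adjusted p = 0.0595). That correction turned the differences of ATP1B1 to ATP1B3 (0.049) and ATP2B4 to ATP2B1 (0.062), ATP2B4 to ATP2B1 also with the union of exons (0.016), and neither passed in any setting. Depth limits SLC8A1 most, at 130 to 254 counts per library.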

Other observations

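The authors' deposited table gives log2 fold changes of KO over WT of -0.39 for ATP2B4, -0.36 for ATP2B1, -0.39 for SLC12A2, 0.13 for ATP1B3, -0.26 for ATP1B2, -0.24 for SLC8A1 and 0.076 for ATP1B1, in the same directions as the edgeR fit. The authors' adjusted p is 7.17e-16 for ATP2B4, 3.09e-10 for ATP2B1, 2.06e-07 for SLC12A2, 1.04e-06 for ATP1B3 and 0.00136 for ATP1B2. It is 0.0599 for SLC8A1 and 0.394 for ATP1B1. Their call column says no for all 7 genes, so that call does not follow an adjusted p under 0.05 alone.

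Annotated genes whose exons overlap those of ATP1B1 and ATP2B1 did not pass the threshold. NME7, of which 2 exons overlap exons of ATP1B1 on the opposite strand, measured 15.2 ± 0.96 CPM in KO and 15.4 ± 0.91 CPM in WT (edgeR adjusted p = 0.795). ATP2B1-AS1 measured 0.59 ± 0.14 CPM in KO and 0.72 ± 0.087 CPM in WT (adjusted p = 0.234).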
